A study of Mus musculus with 12 samples.

Results

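The 34 genes described here encode digestive enzymes and nutrient transporters of the enterocyte surface, together with proteins that build the microvilli on which they sit. They were taken by symbol from the 23329 gene rows of the deposited count files, and all 34 were found. By role, 4 are sugar hydrolases, 8 peptidases, 2 alkaline phosphatases, 3 sugar transporters, 2 peptide or proton-coupled amino acid transporters, 9 amino acid transporters or their partner chains, 1 a monocarboxylate transporter and 5 microvillus structural genes. Wild type C57BL/6J mice aged 2 months received 100 ul of antibody at 1 mg/ml. It was AC H6, which activates LTbR (the receptor of lymphotoxin beta), or its isotype control. RNA from duodenum and spleen was sequenced after 24 h. The 4 groups (duodenum isotype, duodenum AC H6, spleen isotype and spleen AC H6) had 3 libraries each. The mice carried no mutation according to the labels, and the labels do not say whether a library came from 1 mouse or from several. The p-values therefore measure the spread between these libraries, which may be technical.

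The absorptive enterocyte of the small intestine carries a carpet of microvilli, the brush border, at the surface facing the lumen. Enzymes anchored there split disaccharides, short starch chains and oligopeptides, and neighbouring transporters carry the released sugars, amino acids and peptides into the cell. Enterocytes arise from dividing cells of the crypt and switch these genes on as they move up the villus, under transcription factors of the HNF4, CDX and GATA families. LTbR belongs to the TNF receptor family and engages both arms of the NF-kB pathway, and in the gut it is present on epithelial, stromal and myeloid cells.

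Library totals ranged from 13874091 to 45847467 counts. The duodenum label was checked with 8 genes shared by intestinal epithelial cells (among them Epcam and the keratins Krt8 and Krt19), which summed to 7280 to 8260 CPM (counts scaled to a common library total) in duodenum isotype libraries and 20.0 to 24.0 CPM in spleen isotype libraries. CPM here are also scaled for composition within each tissue, so a level is compared between tissues only through a fit over both. Some duodenum libraries stood apart from the rest. The ribosomal repeat transcript Rn45s took 7.56% of counts in isotype library 1 against 0.0880% to 1.18% in the other 5, and the pancreatic amylase genes took 2.13% in isotype library 2 and 8.64% in AC H6 library 3. The 34 genes together took 5.19% to 5.53% of duodenum counts under isotype and 4.61% to 5.46% after AC H6, and 0.0915% to 0.0964% of spleen counts.

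In duodenum, 20 of the 34 genes were lower after AC H6, 2 were higher (Cdhr5 and Slc1a5) and 12 did not pass the test, which was edgeR's quasi-likelihood test with a call at an adjusted p under 0.05 over all genes. Over all 15667 genes tested, 34.6% were called, 16.1% lower and 18.5% higher. Among the 8959 genes whose mean level was at least that of the lowest member, 24.1% were called lower and 16.4% higher. The falls were moderate: those of the 20 genes ran from 12.2% for Cdhr2 to 36.9% for Sis, with a median of 22.7%. Over all 34 members the median log2 change was -0.22, with 26 of 34 below 0, against a median of 0.01 over all genes tested. In 20 members every AC H6 library lay below every isotype library, in 3 every AC H6 library lay above, and in 11 the groups overlapped. Complete separation in the lower direction was seen in 23.7% of all genes tested and in the higher direction in 25.7%. Whether there were fewer enterocytes or less of these RNAs in each enterocyte cannot be told apart in RNA from whole tissue.

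The scaling of the libraries bears on these counts. When the libraries were scaled to the 8 epithelial genes, an alternative chosen after seeing the data, all genes shifted up by a median log2 of 0.17, and 14 members were called, 8 lower and 6 higher, against 4594 genes higher and 648 lower over all. Under that scaling 10 of the 22 calls held, and no called member changed sign. With the 12 libraries of both tissues in 1 fit, 15 members were called, all of them lower. With Rn45s, haemoglobin, Lars2 and pancreatic acinar genes left out of the counts, all 22 calls held and Slc3a1 was called higher as well.

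**Figure D1:**
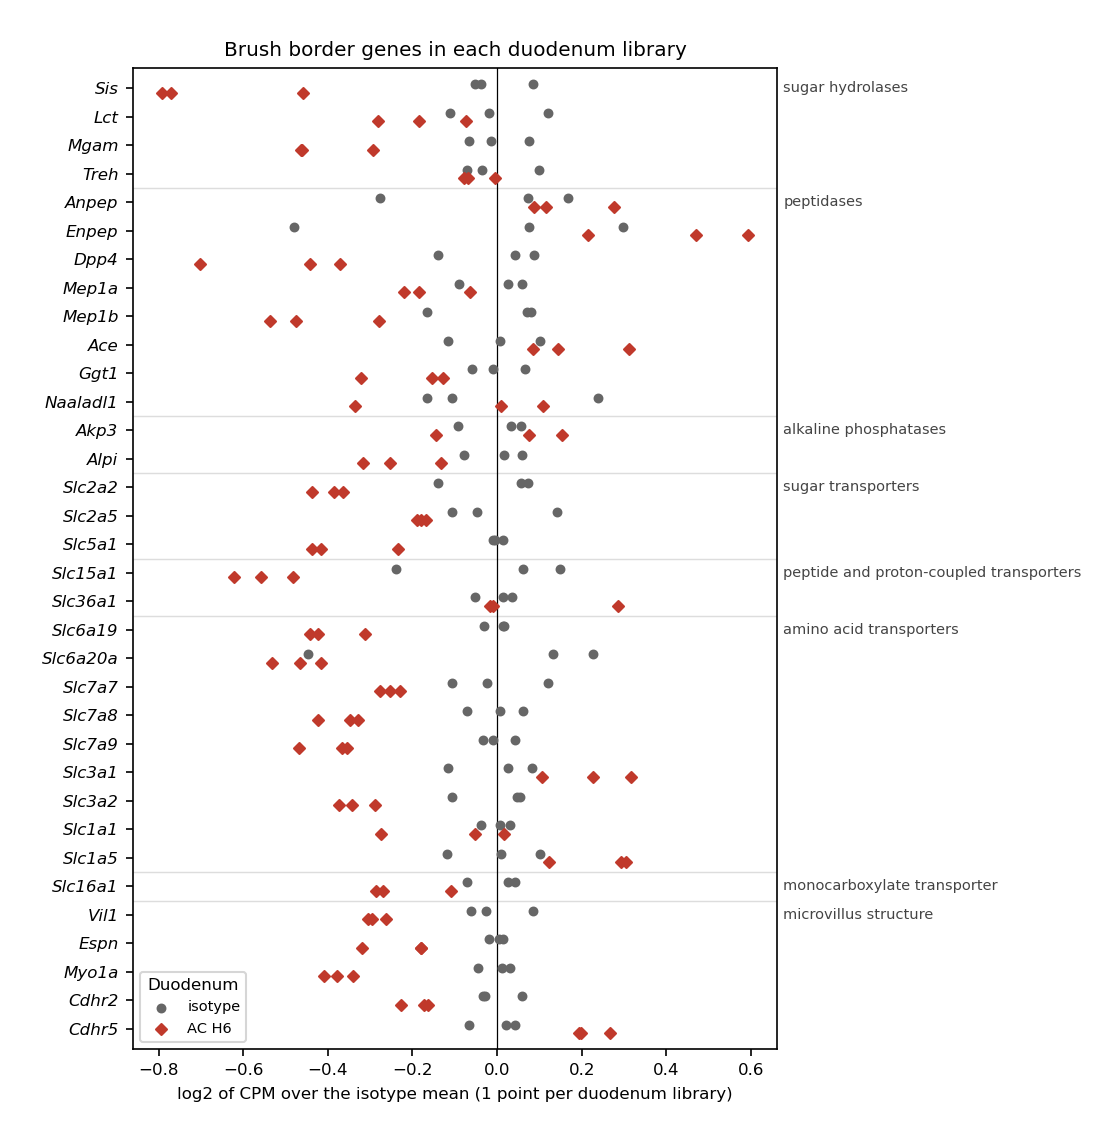
Each point is 1 duodenum library, placed on the horizontal axis by the log2 of its CPM over the isotype mean of that gene, with grey circles for isotype and red diamonds for AC H6 and the genes grouped by role. The AC H6 points of Sis, Dpp4 and Slc15a1 lie farthest to the left, and those of Enpep, Cdhr5 and Slc1a5 lie to the right of 0.

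Sugar hydrolases cut carbohydrates at the cell surface, and 2 of the 4 fell. Sucrase-isomaltase, encoded by Sis (chr3:72888557-72967863), splits sucrose and starch fragments. Its level was 4242, 3860 and 3894 CPM under isotype and 2311, 2345 and 2910 CPM after AC H6. All 3 treated libraries lay far below the controls, a fall of 36.9% (log2 change -0.66, SE 0.09, adjusted p = 0.00102), the deepest among the 34 genes. Maltase-glucoamylase, encoded by Mgam (chr6:40628831-40769123), releases glucose from the ends of starch chains. It measured 4846, 5161 and 4678 CPM under isotype and 3553, 3551 and 3994 CPM after AC H6. The groups were again fully apart, with a fall of 24.4% (log2 change -0.40, SE 0.06, adjusted p = 0.00164). In both genes AC H6 library 3 was the least reduced, and it is also the library with the most pancreatic amylase RNA. Both genes stayed called with the acinar score as a covariate. Lactase, encoded by Lct (chr1:128284756-128328318), splits milk sugar and stood at 947, 859 and 807 CPM under isotype and 828, 767 and 717 CPM after AC H6. Its groups overlapped and it was not called (log2 change -0.18, SE 0.08, adjusted p = 0.109). Trehalase, encoded by Treh (chr9:44673233-44686305), had nearly equal groups, with 502, 446 and 457 CPM under isotype and 467, 443 and 446 CPM after AC H6 (log2 change -0.05, SE 0.06, adjusted p = 0.563).

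The 250 bases before the RefSeq starts of Sis and Mgam are shown because these sugar hydrolases had the deepest falls of their class and lay side by side in level. The sequences are those of GRCm38.p6, written 5′ to 3′ on the gene's strand, and the capitals mark matches to short motifs of intestinal transcription factors, searched on both strands.
Sis (chr3:72967864-72968113, minus strand): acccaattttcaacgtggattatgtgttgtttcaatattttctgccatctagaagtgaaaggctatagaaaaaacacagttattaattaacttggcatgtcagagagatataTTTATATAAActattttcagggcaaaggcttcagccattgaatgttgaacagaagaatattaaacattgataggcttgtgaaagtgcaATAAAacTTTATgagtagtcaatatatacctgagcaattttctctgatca
Mgam (chr6:40628581-40628830, plus strand): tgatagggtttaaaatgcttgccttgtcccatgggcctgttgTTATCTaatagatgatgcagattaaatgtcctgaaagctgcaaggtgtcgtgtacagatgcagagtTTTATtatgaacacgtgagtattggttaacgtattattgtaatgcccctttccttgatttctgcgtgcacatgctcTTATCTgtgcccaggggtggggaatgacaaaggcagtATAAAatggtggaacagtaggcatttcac
A window was found for 31 of the 34 members, and shares are given over all 32851 windows of this length. A member was counted when any of its windows matched, so the counts of members and the shares of windows differ in unit. The CDX motif, searched as TTTAT, is in both windows shown, in 15 of the 31 members' windows and in 37.3% of all windows. The GATA motif, searched as AGATAA, is in the Mgam window, in 7 of the 31 and in 9.99% of all. The HNF4 motif, searched as CAAAGTCCA, is in neither, but in 3 of the 31 (Alpi, Slc3a1 and Treh) and in 0.384% of all. Matches of different motifs may overlap. A match describes the letters of the window and is not a measured binding site.

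Of the 8 peptidases, 3 fell and 5 did not pass the test, and 3 of those 5 had log2 changes above 0. Dipeptidyl peptidase 4, encoded by Dpp4 (chr2:62330073-62412231), removes dipeptides from peptide ends and inactivates incretin hormones. It was at 248, 219 and 256 CPM under isotype and 148, 177 and 186 CPM after AC H6. No treated library reached the lowest control, and the fall was 29.2% (log2 change -0.50, SE 0.10, adjusted p = 0.00619). Meprin is a metalloprotease built from alpha and beta subunits. The beta subunit gene Mep1b, on chromosome 18, had 521, 442 and 525 CPM under isotype and 342, 357 and 409 CPM after AC H6, a fall of 25.6% with the groups apart (log2 change -0.43, SE 0.09, adjusted p = 0.00815). The alpha subunit gene Mep1a (chr17:43474324-43502812) was at 31.1, 31.8 and 28.7 CPM under isotype and 29.2, 26.2 and 26.9 CPM after AC H6, and per kilobase of exon at 8.83 CPM under isotype against 189 CPM for Mep1b. Its groups overlapped and it was not called (log2 change -0.15, SE 0.06, adjusted p = 0.0850). Gamma-glutamyltransferase 1, encoded by Ggt1 (chr10:75561604-75586200), starts the breakdown of extracellular glutathione. It went from 825, 757 and 784 CPM to 709, 722 and 631 CPM, a fall of 12.9% at the edge of the threshold (log2 change -0.20, SE 0.07, adjusted p = 0.0491). Its call was lost without any of the 6 libraries in turn, with adjusted p from 0.0545 without isotype 2 to 0.223 without AC H6 3 (0.138, 0.10, 0.0843 and 0.0600 for leaving out isotype 1, isotype 3, AC H6 1 and AC H6 2).

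The aminopeptidases and the angiotensin converting enzyme leaned the other way without passing the test. Aminopeptidase N, encoded by Anpep (chr7:79821803-79861059), trims neutral residues and measured 529, 415 and 566 CPM under isotype and 546, 535 and 609.8 CPM after AC H6. Isotype library 2 was the low value, and the groups overlapped (log2 change 0.16, SE 0.11, adjusted p = 0.288). Aminopeptidase A, encoded by Enpep (chr3:129269175-129332720), cuts acidic residues and is part of the angiotensin pathway. Its values were 166, 113 and 194 CPM under isotype and 183, 218 and 238 CPM after AC H6. The isotype libraries alone spanned from 113 to 194 CPM, and the log2 change of 0.43 was not called (SE 0.18, adjusted p = 0.0974). Without isotype library 3 Enpep passed, with a log2 change of 0.61 and an adjusted p of 0.0422. Angiotensin converting enzyme, encoded by Ace (chr11:105967945-105989964), was at 480.4, 442 and 514 CPM under isotype and 508, 594 and 529 CPM after AC H6 and was not called (log2 change 0.18, SE 0.08, adjusted p = 0.108). Naaladl1 (chr19:6105782-6115792), a peptidase of the intestinal brush border, was low at 46.6, 36.7 and 35.2 CPM under isotype and 39.8, 42.6 and 31.3 CPM after AC H6, with overlapping groups (log2 change -0.06, SE 0.13, adjusted p = 0.758). Scaled to the epithelial genes, Anpep, Enpep and Ace were called higher, with log2 changes of 0.34, 0.61 and 0.36.

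Intestinal alkaline phosphatases remove phosphate groups at the brush border, including those of bacterial lipopolysaccharide, and the pair of genes measured here did not move alike. Akp3 (chr1:87124973-87127912) and Alpi (chr1:87098002-87101606) are neighbours on chromosome 1 and lie on opposite strands. Akp3 was at 21015, 21367 and 19274 CPM under isotype and 22873, 21647 and 18595 CPM after AC H6, with overlapping groups and no call (log2 change 0.03, SE 0.07, adjusted p = 0.751). Alpi was at 8308, 8561 and 7789 CPM under isotype and 7499, 6898 and 6596 CPM after AC H6. Every treated Alpi value lay below every control, a fall of 14.9% (log2 change -0.23, SE 0.06, adjusted p = 0.0141). The Alpi call was lost without AC H6 library 3, with an adjusted p of 0.428, and with the acinar score as a covariate, with an adjusted p of 0.0595. It was also lost with scaling to the epithelial genes (adjusted p = 0.480). The ratio of Alpi to Akp3 within a library does not depend on scaling: it was 0.395, 0.401 and 0.404 under isotype and 0.328, 0.319 and 0.355 after AC H6. The 3 treated ratios were all below the 3 control ratios (exact two-sided permutation test, p = 0.1, the smallest that 3 against 3 libraries can give). Of the 50-base words of these transcripts, 1.57% of those of Akp3 occur in Alpi and 1.53% of those of Alpi in Akp3, so most reads can be assigned. Together these phosphatases took 2.69% to 2.96% of duodenum counts under isotype and 2.45% to 3.23% after AC H6. The other 32 members summed to 27186, 26039 and 25821 CPM under isotype and to 20862, 20957 and 22228 CPM after AC H6, with no overlap.

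The windows upstream of Alpi and Akp3 are shown because these neighbours differed in their change.
Alpi (chr1:87101607-87101856, minus strand): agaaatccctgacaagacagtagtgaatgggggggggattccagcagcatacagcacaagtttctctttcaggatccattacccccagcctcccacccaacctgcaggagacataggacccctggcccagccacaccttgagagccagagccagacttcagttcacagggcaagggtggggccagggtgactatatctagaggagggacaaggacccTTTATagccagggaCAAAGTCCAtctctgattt
Akp3 (chr1:87124704-87124953, plus strand): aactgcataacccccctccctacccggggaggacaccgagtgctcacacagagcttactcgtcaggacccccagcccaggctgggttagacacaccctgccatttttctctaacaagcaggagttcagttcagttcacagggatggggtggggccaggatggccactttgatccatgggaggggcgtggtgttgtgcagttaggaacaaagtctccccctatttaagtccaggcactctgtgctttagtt
Aligned to each other, the windows had 147 identical and 73 different bases, an identity of 66.8% of the aligned bases. The alignment had 60 gap positions. The Alpi window held the HNF4 and CDX motifs, in capitals, and the Akp3 window held none of the 3 motifs searched. The absence of these letters in this window says nothing of the factors themselves.

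Sugar transporters move the glucose, galactose and fructose that the hydrolases release, and 2 of the 3 fell. The sodium-glucose cotransporter SGLT1, encoded by Slc5a1 (chr5:33104219-33162870), takes up glucose and galactose from the lumen. It stood at 3638, 3591 and 3574 CPM under isotype and 2660, 2697 and 3060 CPM after AC H6. The isotype libraries were within 100 CPM of each other and all treated libraries were below them, a fall of 22.1% (log2 change -0.36, SE 0.06, adjusted p = 0.00244). GLUT2, encoded by Slc2a2 (chr3:28697903-28731359), releases these sugars across the basolateral membrane. Its 624, 631 and 544 CPM under isotype compare with 443, 459 and 466 CPM after AC H6, a fall of 24.0% with the groups apart (log2 change -0.40, SE 0.07, adjusted p = 0.00333). The fructose transporter GLUT5, encoded by Slc2a5 (chr4:150119283-150144169), had 306, 269 and 258 CPM under isotype and 247, 245 and 243 CPM after AC H6. All 3 treated values were lower than all controls, but the change did not pass the threshold (log2 change -0.18, SE 0.07, adjusted p = 0.0911). DESeq2 called Slc2a5, with an adjusted p of 0.0458.

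The peptide transporter PEPT1, encoded by Slc15a1 (chr14:121459621-121505252), absorbs dipeptides and tripeptides with protons. It was at 221, 179.8 and 235 CPM under isotype and 138, 144 and 152 CPM after AC H6. The fall of 31.8% was the second deepest of the 34 genes (log2 change -0.55, SE 0.10, adjusted p = 0.00433), and the treated libraries lay close together below the controls. Slc36a1 (chr11:55204350-55236330), a proton-coupled transporter of small amino acids found on many cells, measured 33.8, 35.4 and 36.0 CPM under isotype and 34.8, 42.7 and 34.6 CPM after AC H6. Its groups overlapped and it was not called (log2 change 0.09, SE 0.08, adjusted p = 0.419).

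Of the 9 amino acid transporter genes, 6 fell, 1 rose and 2 did not pass the test. B0AT1, encoded by Slc6a19 (chr13:73679745-73704865), is the main sodium-coupled importer of neutral amino acids. Its level was 429.5, 417 and 430.3 CPM under isotype and 313, 317 and 343 CPM after AC H6. The controls differed by less than 15 CPM and the treated libraries were all lower, a fall of 23.8% (log2 change -0.39, SE 0.06, adjusted p = 0.00163). The proline transporter gene Slc6a20a (chr9:123634770-123678885) was at 212, 133 and 198 CPM under isotype and 131, 136 and 125 CPM after AC H6. Isotype library 2 was as low as the treated libraries, so the groups overlapped, although the test called a fall of 27.9% (log2 change -0.47, SE 0.15, adjusted p = 0.0449). That call was lost when isotype 1 (adjusted p = 0.139), isotype 3 (0.132), AC H6 1 (0.107), AC H6 2 (0.0960) or AC H6 3 (0.0976) was left out, and when the replicate number was a block (0.0592). It was also lost with upper quartile scaling (0.0565), with 1 fit of all 12 libraries (0.266) and with scaling to the epithelial genes (0.122). Of the 50-base words of Slc6a20a, 26.7% occur in other genes, 15.3% in its neighbour copy Slc6a20b, so the value is uncertain.

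Several amino acid exchangers work as pairs of a light chain, which carries the substrate, and a heavy chain, which brings it to the membrane. Slc7a9 (chr7:35448796-35466036) encodes the light chain of the luminal cystine and dibasic amino acid exchanger, and had 185, 179 and 176 CPM under isotype and 129.9, 141 and 139.5 CPM after AC H6. That is a fall of 24.0%, with the groups apart (log2 change -0.40, SE 0.06, adjusted p = 0.00258). Its heavy chain gene Slc3a1 (chr17:85028376-85064236) went the other way, with 164, 143 and 158 CPM under isotype and 167, 181 and 193 CPM after AC H6. All treated Slc3a1 values lay above all controls, but the test did not call it (log2 change 0.22, SE 0.08, adjusted p = 0.0681), while 6 of the other settings did, with adjusted p from 0.00803 to 0.0483. The ratio of Slc7a9 to Slc3a1 was 1.13, 1.25 and 1.12 under isotype and 0.779, 0.775 and 0.723 after AC H6, fully apart (exact two-sided permutation test, p = 0.1, the smallest possible). Of the 50-base words of Slc3a1, 24.8% also occur in Prepl, which overlaps it, so its level may hold reads of that gene.

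At the basolateral side, Slc7a7 (chr14:54369442-54417780) and Slc7a8 (chr14:54722209-54781946) encode light chains that release dibasic and neutral amino acids, and Slc3a2 (chr19:8706882-8723369) encodes their heavy chain, known as CD98. All 3 fell. Slc7a7 was at 119, 102 and 108 CPM under isotype and 93.4, 90.4 and 91.9 CPM after AC H6, a fall of 16.1% (log2 change -0.25, SE 0.07, adjusted p = 0.0286). Slc7a8 was at 129, 134 and 123 CPM under isotype and 101, 102 and 96.1 CPM after AC H6, a fall of 22.4% (log2 change -0.37, SE 0.07, adjusted p = 0.00402). For Slc3a2 the values were 179.6, 161 and 181 CPM under isotype and 134, 137 and 142 CPM after AC H6, a fall of 20.7% (log2 change -0.33, SE 0.07, adjusted p = 0.00773). In each of the 3 genes the treated libraries lay below all controls. The ratios of these light chains to Slc3a2 overlapped between groups, at 0.597 to 0.663 under isotype and 0.645 to 0.696 after AC H6 for Slc7a7 (exact two-sided permutation test, p = 0.3) and at 0.679 to 0.833 and 0.675 to 0.754 for Slc7a8 (p = 0.8). The Slc7a7 call was lost without isotype 1 (adjusted p = 0.0893), isotype 3 (0.0558), AC H6 1 (0.0582) or AC H6 2 (0.0942).

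Slc1a5 (chr7:16781340-16798274), which encodes the neutral amino acid exchanger ASCT2 used by dividing cells to take up glutamine, was 1 of the 2 members that rose. It was at 47.3, 55.2 and 51.7 CPM under isotype and 63.0, 63.5 and 56.0 CPM after AC H6. The treated libraries lay above the controls, a rise of 18.3% (log2 change 0.24, SE 0.07, adjusted p = 0.0338). Without isotype 1 (adjusted p = 0.0863), isotype 3 (0.0736), AC H6 1 (0.0956) or AC H6 2 (0.107) the call was lost. The glutamate transporter gene Slc1a1 (chr19:28835049-28913960) was the least abundant member per length and measured 12.3, 12.5 and 11.9 CPM under isotype and 10.1, 11.8 and 12.4 CPM after AC H6, with overlapping groups (log2 change -0.10, SE 0.09, adjusted p = 0.428). Of its 50-base words, 31.0% also occur in the overlapping gene 4430402I18Rik. The monocarboxylate transporter MCT1, encoded by Slc16a1 (chr3:104638668-104658462), carries lactate and short-chain fatty acids. It was at 92.8, 93.9 and 86.8 CPM under isotype and 75.6, 74.7 and 84.6 CPM after AC H6, a fall of 14.1% close to the threshold (log2 change -0.22, SE 0.07, adjusted p = 0.0417). Its call was lost without isotype 1 (adjusted p = 0.105), isotype 2 (0.106), AC H6 1 (0.109) or AC H6 2 (0.139), and with the replicate block (0.0610). It was also lost with upper quartile scaling (0.0680), without a filter on low counts (0.0579), with 1 fit of all 12 libraries (0.426) and with scaling to the epithelial genes (0.673).

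The microvillus genes of the module moved in both directions, with 4 lower and 1 higher. Myosin 1a, encoded by Myo1a (chr10:127705170-127720940), ties the actin core to the membrane. It was at 1560, 1581 and 1498 CPM under isotype and 1220, 1189 and 1165 CPM after AC H6. Controls and treated libraries each kept within a narrow band, and the fall of 22.9% had the smallest adjusted p of the 34 genes (log2 change -0.38, SE 0.05, adjusted p = 0.000761). Villin, encoded by Vil1 (chr1:74409376-74435559), bundles actin and was at 1960, 1816 and 1772 CPM under isotype and 1508, 1498 and 1543 CPM after AC H6, a fall of 18.0% (log2 change -0.29, SE 0.05, adjusted p = 0.00402). Espin, encoded by Espn (chr4:152120331-152152371), is another actin bundler, with 110.0, 111 and 108 CPM under isotype and 96.8, 96.9 and 88.0 CPM after AC H6, a fall of 14.4% (log2 change -0.22, SE 0.07, adjusted p = 0.0287). In Vil1 and Espn, as in Myo1a, no treated library reached the lowest control. The Vil1 call was lost without AC H6 3 (adjusted p = 0.0711), and that of Espn without isotype 1 (0.0699), isotype 2 (0.0632), isotype 3 (0.0558) or AC H6 2 (0.0592).

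Cdhr2 and Cdhr5 encode the protocadherins whose extracellular parts meet between the tips of neighbouring microvilli. Cdhr2 (chr13:54701461-54736662) was at 2508, 2363 and 2355 CPM under isotype and 2152, 2136 and 2056 CPM after AC H6, the smallest of the called falls at 12.2% (log2 change -0.19, SE 0.05, adjusted p = 0.0152). Cdhr5 (chr7:141269083-141276786) was at 1269, 1251 and 1178 CPM under isotype and 1482, 1415 and 1409 CPM after AC H6, a rise of 16.4% (log2 change 0.22, SE 0.05, adjusted p = 0.0116). Both genes had fully separate groups, in opposite directions. The ratio of Cdhr2 to Cdhr5 was 1.98, 1.89 and 2.00 under isotype and 1.45, 1.51 and 1.46 after AC H6, so the treated and control libraries shared no value (exact two-sided permutation test, p = 0.1, the smallest possible). Without AC H6 3 neither gene was called (adjusted p = 0.295 for Cdhr2 and 0.108 for Cdhr5), and without AC H6 1 Cdhr5 missed the threshold at 0.0507.

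The ratios of 7 pairs of members were compared in all, chosen after the values were seen, and 4 had fully separate groups: Alpi to Akp3, Slc7a9 to Slc3a1, Cdhr2 to Cdhr5 and Sis to Mgam. The ratio of Sis to Mgam was 0.875, 0.748 and 0.832 under isotype and 0.650, 0.660 and 0.729 after AC H6. Adjusted over the 7 pairs, the exact p of each of these 4 was 0.175, so none passed a threshold that this number of libraries could not reach. The log2 difference was -0.62 for Slc7a9 to Slc3a1, -0.41 for Cdhr2 to Cdhr5, -0.27 for Sis to Mgam and -0.26 for Alpi to Akp3.

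Per kilobase of annotated exon, the alkaline phosphatases stood far above every other member. Under isotype Akp3 led with 9791 ± 534 CPM per kb (SD, n = 3), followed by Alpi with 3517 ± 169 and Slc5a1 with 877 ± 8.07. Next came Cdhr2 with 583 ± 20.8 CPM per kb, Mgam with 562 ± 28.1, Sis with 536 ± 28.4 and Vil1 with 521 ± 27.7, where each neighbour differed from the next by about its SD or less. At the low end were Mep1a with 8.83 ± 0.475 CPM per kb, Slc36a1 with 6.23 ± 0.198 and Slc1a1 with 1.48 ± 0.0351. Even Slc1a1 rested on 1060 counts over the 3 isotype libraries. Reads were divided by the summed length of all annotated exons, which understates genes with long or rarely used exons. After AC H6 Sis dropped to 338 ± 45.1 CPM per kb, below Vil1 and Cdhr5.

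**Figure D2:**
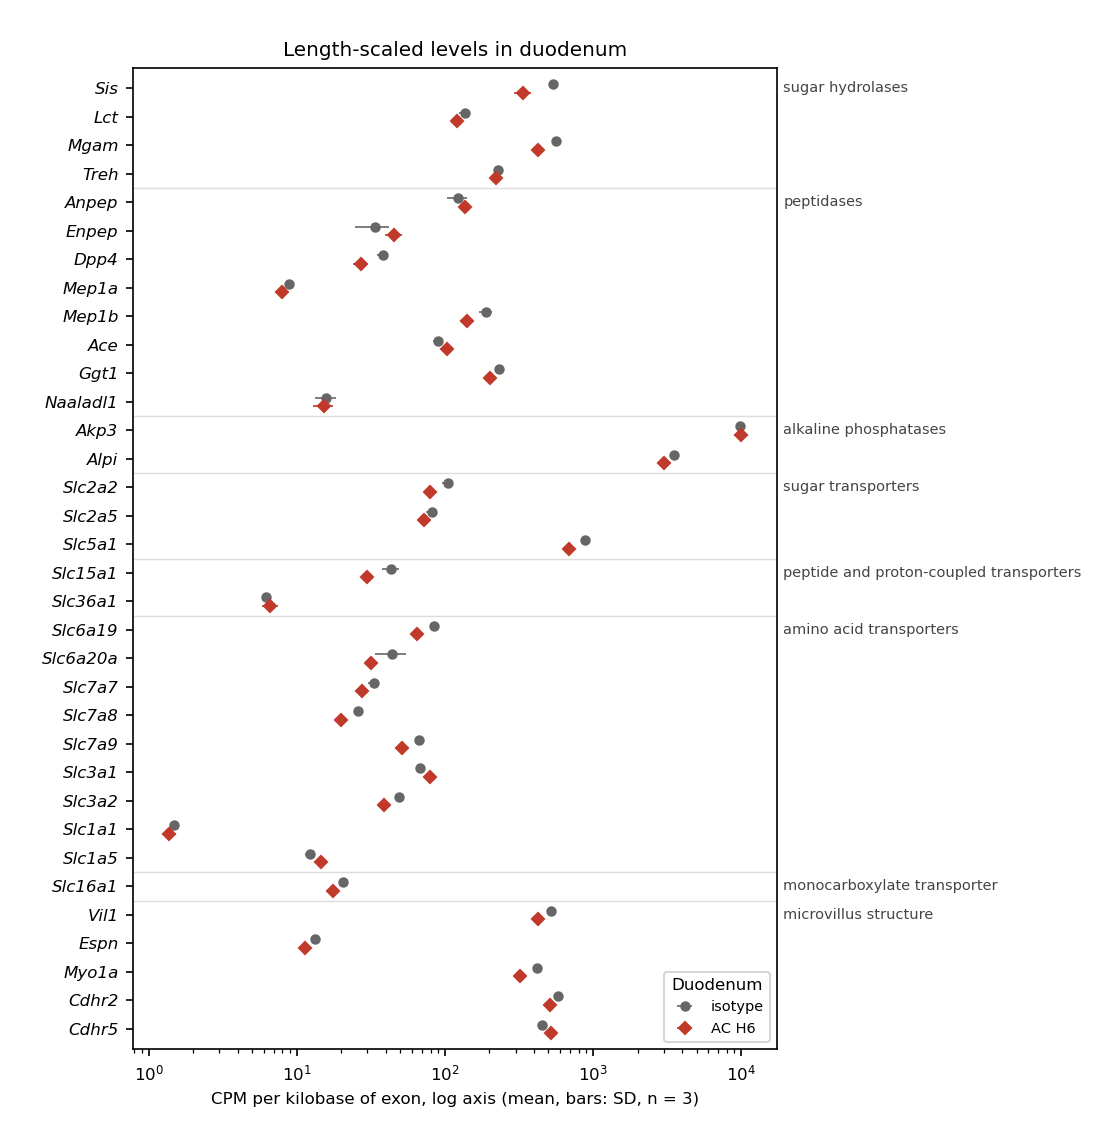
Mean CPM per kilobase of exon of the 34 genes in duodenum (log axis), with grey circles for isotype, red diamonds for AC H6 and bars for the SD over 3 libraries. Akp3 and Alpi stand far to the right of all others, and the distance between circle and diamond is small beside the range of levels between genes.

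Across the 6 duodenum libraries the members varied together to different degrees. Pearson's r of log2 CPM had a median of 0.508 over the 561 pairs of members and of 0.875 over the 190 pairs of members called lower, where the lowest was 0.474. These values include the difference between the groups and the shared scaling of each library, so they are descriptions. The 190 pairs were picked by a fall over these same libraries, which by itself raises r. Taken as deviations from the group means, members called lower did not all vary together. There r was 0.962 for Sis and Slc5a1, but -0.898 for Sis and Espn, which had 0.758 over the 6 libraries. The genes most like Sis were Slc5a1 with r = 0.996, Slc6a19 with 0.989 and Mgam with 0.967. They encode a sugar transporter, an amino acid transporter and a sugar hydrolase. Enpep was most like Anpep with 0.938, Slc3a1 with 0.911 and Ace with 0.863, members that share a log2 change above 0 and a low value in isotype library 2. The median coefficient of variation of a member was 5.41% over the isotype libraries and 6.73% over the AC H6 libraries.

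Other brush border enzymes, 15 tested of 16 listed, gave 7 lower, 2 higher and 6 not called, with a median log2 change of -0.23. The endopeptidase neprilysin, encoded by Mme, was at 791, 551 and 785 CPM under isotype and 424, 506 and 501 CPM after AC H6, a fall of 32.7% (adjusted p = 0.0135), and enteropeptidase, encoded by Tmprss15, which activates trypsinogen, fell by 21.8% (adjusted p = 0.0187). The surface enzymes Xpnpep2 and Enpp3 fell by 18.7% and 24.8%, and Cndp2 and Lipe, a dipeptidase and a lipase of the cell interior, by 15.2% and 14.6%. Carboxypeptidase M, encoded by Cpm, rose by 35.9% (adjusted p = 0.0165), and Plb1, a phospholipase, was called higher at levels under 1 CPM (0.132, 0.352 and 0.337 CPM under isotype and 0.645, 0.473 and 0.703 CPM after AC H6).

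Other nutrient transporters, 33 tested of 36 listed, gave 14 lower, 1 higher and 18 not called, with a median log2 change of -0.19. The chloride-bicarbonate exchanger Slc26a3 was at 301, 239 and 319 CPM under isotype and 151, 166 and 178 CPM after AC H6, a fall of 42.3% (adjusted p = 0.00136). The sulphate transporter Slc13a1 fell by 36.0%, the aromatic amino acid transporter Slc16a10 by 34.8%, the taurine transporter Slc6a6 by 25.0% and the thiamine transporters Slc19a2 and Slc19a3 by 27.8% and 20.6%. Slc7a1, Slc7a15, Slc28a3, Slc6a20b, Slc2a7, Slc5a9 and Slc6a8 fell by between 11.7% (Slc6a8) and 30.6% (Slc6a20b), and Slc23a1 fell by 51.9% at levels under 2 CPM. The amino acid exchanger light chain Slc7a6 was the 1 that rose, from 7.28, 8.71 and 8.01 CPM to 12.4, 12.9 and 14.7 CPM (adjusted p = 0.00111).

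Other microvillus genes, 19 tested of 20 listed, gave 15 lower, 0 higher and 4 not called, with a median log2 change of -0.29 and all 19 below 0. Under the limit of 0.05 without adjustment, 16 of the 19 passed, where 7112 of all 15667 genes tested did. Ezrin, encoded by Ezr, which links actin to the membrane, was at 904, 953 and 889 CPM under isotype and 684, 684 and 687 CPM after AC H6, a fall of 25.2% (adjusted p = 0.000626). Plac8 fell by 32.1% (adjusted p = 0.000249) and Cobl, an actin nucleator, by 28.7%. The tip-link partners of Cdhr2 and Cdhr5 moved down with Cdhr2: Myo7b fell by 21.9%, Anks4b by 20.9%, Calml4 by 21.8% and Ush1c by 16.4%. The bundler Pls1 fell by 21.9%, and Eps8l2, Baiap2l2, Myo6, Baiap2l1, Slc9a3r1, Myo5b and Eps8 fell by between 13.5% (Eps8) and 20.7% (Baiap2l2).

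Of 19 transcription factor genes of the enterocyte, 11 fell, 0 rose and 8 did not pass the test, with a median log2 change of -0.28. Without adjustment 12 of the 19 were under 0.05, where 7112 of all 15667 genes tested were. Hnf4g was at 418, 383 and 500.4 CPM under isotype and 263, 296 and 310.3 CPM after AC H6, a fall of 33.2% (adjusted p = 0.00402), and Hnf4a fell by 17.4% (adjusted p = 0.00799). These encode the HNF4 factors that bind many enterocyte genes. Maf, Elf3, Nr5a2, Klf5, Klf4 and Cdx2 fell by 28.3%, 27.1%, 25.0%, 24.2%, 22.6% and 21.2%, and Pdx1, Gata6 and Gata4 by 19.7%, 18.8% and 15.1%. Cdx1, Gata5, Isx, Creb3l3, Smad4 and Prdm1 were among those not called.

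**Figure D3:**
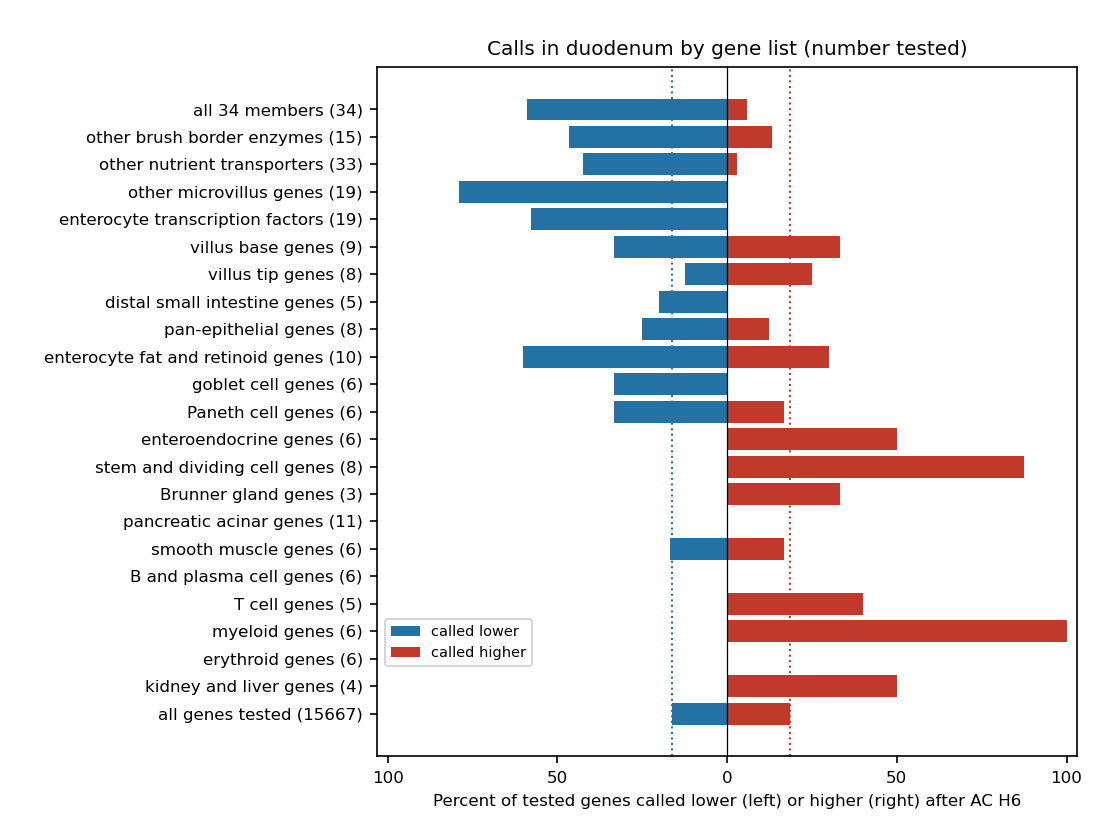
Bars give the percent of tested genes of each list called lower (blue, to the left) or higher (red, to the right) after AC H6 in duodenum, with the number tested in brackets and dotted lines at the values over all genes, 16.1% lower and 18.5% higher. The bars of the brush border, transporter, microvillus and transcription factor lists lie mostly to the left, and those of the stem, enteroendocrine and myeloid lists lie to the right.

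Lists of genes that mark other cells of the duodenum differed in how many of their members moved. The 8 epithelial genes summed to 7280 to 8260 CPM under isotype and 6563 to 7085 CPM after AC H6, with 2 lower (Cldn7 and Epcam), 1 higher (Krt18) and 5 not called. Their median log2 change was -0.19, with 7 of 8 below 0, close to the -0.22 over the 34 members. Without adjustment 7 of the 8 had p under 0.05, where 7112 of all 15667 genes tested did. Of 8 genes of stem and dividing cells 7 rose, with a median log2 change of 0.53, and the list summed to 659 to 700.0 CPM under isotype and 909 to 1148 CPM after AC H6. The stem cell genes Olfm4 and Ascl2 rose by 63.6% and 148%. All 6 myeloid genes rose, with sums of 188 to 192 CPM under isotype and 281 to 332 CPM after AC H6, and 3 of 6 enteroendocrine genes rose, with sums of 475 to 504 CPM under isotype and 626 to 659 CPM after AC H6. The 3 Brunner gland genes summed to 7514 to 13279 CPM under isotype and 13450 to 21252 CPM after AC H6, and 1 of them (Tff2) was called. The 11 pancreatic acinar genes were uneven, summing to 25.3, 8408 and 138 CPM in the isotype libraries and 30.1, 2783 and 33650 CPM in the AC H6 libraries, and 0 of 11 were called by the test (0 with p under 0.05 without adjustment). Among 6 goblet cell genes 2 were lower and 4 not called, among 6 Paneth cell genes 2 were lower, 1 higher and 3 not called, and among 6 smooth muscle genes 1 was lower, 1 higher and 4 not called. Of 5 T cell genes 2 were higher and 3 not called, and 0 of 6 B and plasma cell genes and 0 of 6 erythroid genes were called by the test (1 of each list had p under 0.05 without adjustment). No listed marker of these lists was at 0 in every duodenum library. The part of these cells in the members' changes was not tested, except that the fit with the acinar score as a covariate kept 19 of the 22 calls and lost Alpi, Cdhr2 and Ggt1.

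Genes that mark positions along the villus and the gut gave no common direction. Of 9 genes of the villus base 3 were lower and 3 higher, with Reg3g going from 74.2, 177 and 105 CPM to 610.5, 782 and 1206 CPM and Gsdmc4 from 1.62, 3.61 and 2.96 CPM to 0.0773, 0.0315 and 0.0469 CPM. Of 8 genes of the villus tip 1 was lower (Klf4) and 2 were higher (Egfr and Apoa4). Of 5 tested genes of the distal small intestine 1 was lower (Nr1h4), and the list summed to 336 to 367 CPM under isotype and 341 to 364 CPM after AC H6. Among 10 enterocyte genes of fat and retinoid handling 6 fell and 3 rose. The fatty acid binding protein gene Fabp1 was at 1322, 1051 and 1168 CPM under isotype and 774, 738 and 802 CPM after AC H6, a fall of 34.6%, while Apoa4 rose by 20.8%.

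In spleen, which holds no enterocytes, most members were barely present. Of the 34, 32 passed the filter on low counts (Mep1a and Slc1a1 did not), and 7 averaged under 1 CPM under isotype. In 3 members every AC H6 library lay below every isotype library and in 7 above, where 16.6% and 15.9% of all genes did so. The test called 1 member lower, Dpp4, and 0 higher, against 3.98% of all 15270 genes tested (1.92% lower and 2.06% higher). At an unadjusted p under 0.05, 9 of the 32 passed, where 4260 of all 15270 genes tested did, a similar share. Dpp4, which is also the lymphocyte protein CD26, was at 131, 129.7 and 135 CPM under isotype and 102, 112 and 111 CPM after AC H6. The treated libraries lay below the controls, a fall of 17.8% (log2 change -0.28, SE 0.06, adjusted p = 0.0476). That call was lost without isotype 1, 2 or 3 (adjusted p = 0.150, 0.0981 and 0.151), without AC H6 1 or 3 (0.116 and 0.146), and with the replicate block (0.123). Mgam had the next smallest adjusted p: it was at 6.07, 6.20 and 6.73 CPM under isotype and 8.24, 8.28 and 8.55 CPM after AC H6 (log2 change 0.40, SE 0.09, adjusted p = 0.0524).

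The difference between the changes in duodenum and spleen was tested as an interaction over the 12 libraries. It was called for 8 members, all with a lower change in duodenum, against 20.0% of 16655 genes (9.13% lower and 10.9% higher). For Sis the log2 change in duodenum minus that in spleen was -0.70 (SE 0.14, adjusted p = 0.00473), with spleen levels of 3.98 to 4.70 CPM in all 6 libraries. Mgam differed by -0.82 (SE 0.10, adjusted p = 0.000302), the smallest adjusted p of the 8, since it fell in duodenum and had higher values in every treated spleen library. The differences of Slc5a1 (-0.55, adjusted p = 0.00309), Slc7a7 (-0.44, 0.00818), Slc3a2 (-0.52, 0.0157), Alpi (-0.38, 0.0274) and Myo1a (-0.45, 0.00954) were smaller. Slc16a1 had the largest difference of the 8 called members, -1.02 (SE 0.30, adjusted p = 0.0354). Its spleen values were 113, 128.04 and 69.4 CPM under isotype and 229, 127.88 and 175 CPM after AC H6. The haemoglobin genes took 10.4%, 16.3% and 6.58% of counts in those isotype libraries and 24.3%, 13.4% and 19.2% in the AC H6 libraries. The 6 libraries had the same order in both, and the part of the haemoglobin genes in the result was not tested. For the other 26 members no difference between the tissues was called, among them Dpp4 (-0.23, SE 0.12), which was lower in both.

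Leaving out a library changed some of these interaction calls. Slc16a1 was lost without any of the isotype duodenum libraries, any of the AC H6 duodenum libraries, spleen isotype 1, spleen AC H6 1 or spleen AC H6 3, with adjusted p from 0.0503 to 0.0825. Alpi was lost without duodenum isotype 2, duodenum AC H6 2, duodenum AC H6 3, spleen isotype 3 or spleen AC H6 3, with adjusted p from 0.0531 to 0.0877, and Myo1a without spleen isotype 1, at 0.0536. Limma-voom did not call Sis or Alpi, at 0.0766 and 0.0764.

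**Figure D4:**
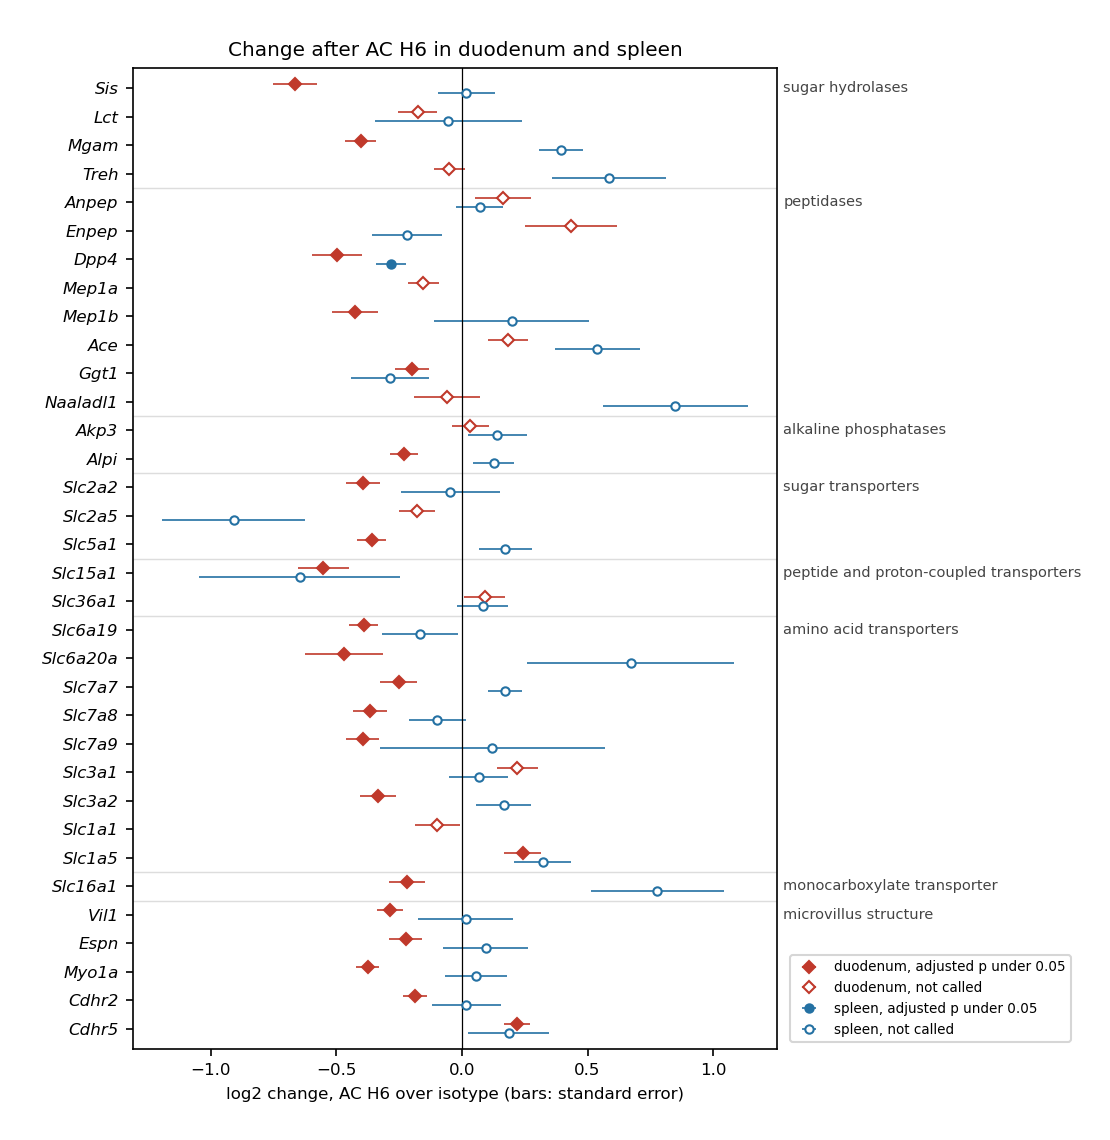
Log2 change after AC H6 over isotype for each member, with red diamonds for duodenum, blue circles for spleen and bars for the standard error; filled symbols passed an adjusted p of 0.05. The duodenum symbols lie mostly left of 0 with short bars, whereas the spleen symbols scatter around 0 with long bars for members of low spleen level, and Mep1a and Slc1a1 have no spleen symbol.

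Between the tissues under isotype, 31 members were higher in duodenum, 1 was lower and 2 were not called, where 86.0% of all 16029 genes were called (42.2% higher and 43.8% lower). The median log2 difference over the members was 8.50, and the largest was 10.30 for Alpi. Sis, Treh, Akp3, Slc5a1, Mep1b, Cdhr2 and Mgam also exceeded 10. Smaller differences were seen for members that immune or other cells use as well: 1.29 for Dpp4, 2.28 for Slc7a7, 3.02 for Slc7a8, 0.92 for Slc3a2 and 4.04 for Anpep. Slc1a5 was lower in duodenum, with a log2 difference of -1.80 (SE 0.09). Slc16a1 (0.24, adjusted p = 0.278) and Slc36a1 (0.12, adjusted p = 0.0766) were not called. The direction for Slc36a1 depends on scaling: it was -0.14 with upper quartile scaling (adjusted p = 0.0472), which moved the median of all genes to -0.32, and 0.19 with size factors by the median of ratios (adjusted p = 0.0163).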

How the data were processed

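RNA of duodenum and spleen was sequenced from 12 libraries, 3 per group, grouped by the labels' tissue and treatment. The deposited values are whole-number counts of reads per gene, 1 file per library; per the submitters' processing notes the tools were bcl2fastq 2.19, Trimmomatic, STAR 2.3 and edgeR and the build was mm10, while no source used here names the counting tool or the annotation. The column name of the deposited counts speaks of multiple matches, so reads that fit several genes may be counted in each. The labels' extraction text names another organ than the tissues labelled. Totals were 13874091 to 45847467 counts. In duodenum, members of low level such as Slc1a1 are limited by counting error as well as by the spread between libraries.

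Counts were filtered (filterByExpr), scaled by TMM within each fit and tested with edgeR 4.0.16 (R 4.3.3) by the quasi-likelihood test, with Benjamini-Hochberg adjustment over all genes tested and a call at 0.05. The SE is the log2 change divided by the square root of F. Each tissue was fitted on its 6 libraries, the interaction on all 12 and the tissue difference on the 6 isotype libraries. DESeq2 1.42.0 and limma 3.58.1 (voom) were alternatives, beside other scalings and filters, a replicate block, an acinar score as a covariate and leaving out each library. The fits were tested on simulated data. Ratios were tested by exact permutation in Python 3.11.15, and upstream windows were aligned with Biopython 1.88.

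Gene positions and exon lengths come from the GENCODE annotation of GRCm38, and upstream windows from RefSeq on GRCm38.p6, matched by symbol. Of 243 entries in the gene lists 241 had a row, 9 of them under an older symbol; Muc2 and Trac were not analysed here. The members and lists were chosen with earlier results of these data known. All 34 members are named with the value in every duodenum library; of the other lists up to 4 genes of smallest unadjusted p and, for the enzyme, transporter, microvillus and transcription factor lists, every called gene, except for a few items that are not reported here.

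Same-numbered AC H6 and isotype libraries did not pair (correlations of deviations 0.58, 0.33 and -0.22 in duodenum, and 0.38, -0.07 and 0.03 in spleen). Same-numbered duodenum and spleen isotype libraries did, at 0.31, 0.48 and 0.14, from the data and not from the labels, while the AC H6 libraries of both tissues gave 0.16, 0.23 and -0.25 and did not all pair. The block kept all 32 calls between the tissues under isotype. No 2 libraries of a group agreed within sampling noise.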

Additional observations from a re-analysis of the deposited data

Results flagged for a closer look

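Of the 34 members, 8 had a change in duodenum that differed from that in spleen by the test of the interaction, and each was lower in duodenum. Over all 16655 genes tested, 20.0% were called (9.13% lower and 10.9% higher), so the count of 8 is near the share called in either direction. All 8 lay on the lower side, where 9.13% of all genes were called. On the log2 scale, duodenum minus spleen, the differences were -0.70 for Sis, -0.82 for Mgam, -0.38 for Alpi, -0.55 for Slc5a1, -0.44 for Slc7a7, -0.52 for Slc3a2, -1.02 for Slc16a1 and -0.45 for Myo1a. Sis, Mgam, Alpi, Slc5a1 and Myo1a were under 10 CPM in every spleen library. Their counts summed over the 3 spleen libraries ran from 205 (Myo1a) to 663 (Alpi) under isotype. After AC H6 the sums ran from 280 (Myo1a) to 958 (Alpi). Under isotype these genes were higher in duodenum than in spleen by a log2 difference of 9.61 (Myo1a) to 10.30 (Alpi). The origin of these spleen reads was not tested. Slc7a7, Slc3a2 and Slc16a1 were above 20 CPM in every spleen library, and all 3 had log2 changes above 0 there without a call.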

How the results depend on the processing

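The 22 duodenum calls stayed within 1.5 times under the alternatives named in the processing, at 15 to 24 (15 with 1 fit of all 12 libraries, 24 with DESeq2), and at 16 to 19 when each library was left out. Scaling to the epithelial genes gave 14, outside that limit, with 8 lower and 6 higher against 20 lower and 2 higher in the main fit. With the replicate block 20 members were called in duodenum, losing Ggt1, Slc16a1 and Slc6a20a and adding Lct, 9 in the interaction and 32 between tissues; the same numbers do not mark shared animals in the labels. The single spleen call was not stable: 2 members were called with size factors by the median of ratios and 2 without Rn45s, haemoglobin, Lars2 and acinar genes, 3 with DESeq2, 3 with 1 fit of all 12 libraries, 0 without a filter on low counts, 0 with the replicate block, and 0 to 1 when each library was left out. Over all genes in spleen the 608 calls became 1356 with DESeq2, 1390 with 1 fit of all 12 libraries, 1 with the replicate block and 14 to 1132 when each library was left out (14 without isotype 1, 68 without isotype 2, 104 without isotype 3, 76 without AC H6 1, 1132 without AC H6 2 and 30 without AC H6 3). The interaction gave 6 to 9 calls and the tissue difference 32 to 33. The direction of Slc36a1 between tissues reversed to -0.14 with upper quartile scaling; the cause was not tested. Of 2236 values of members under all alternatives, 55 changed sign while past the threshold in neither setting. Depth limits the spleen values of the 7 members under 1 CPM.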
